A study of Mus musculus with 12 samples.

Results

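The comparison asked whether cells with a deletion in Piezo1 changed their transcriptome between day 1 and day 14 of culture in the same way as wild-type (WT) cells. For each gene, the change from day 1 to day 14 in deleted cells (KO) was taken on the log2 scale, and the same change in WT cells was subtracted from it. A positive difference therefore means that the day 14 minus day 1 value was larger in KO cells. All 13772 genes that passed a filter on low counts were tested, and 8 of the 12 libraries of the series, 2 from each of 4 groups, give the difference. The cells were OCY454, a mouse osteocyte-like line that divides at 33 °C, in alpha-MEM to which 10% serum is added, and differentiates at 37 °C. The groups were KO cells at day 14, KO cells at day 1, WT cells at day 14 and WT cells at day 1. KO cells were made with CRISPR-Cas9 and lack exons 19 to 21 of Piezo1, and both lines were grown and differentiated in the same way. The labels do not say how many clones the KO line comes from, nor that the replicates of a group were separate cultures. The p-values therefore measure only the spread between libraries, which may be technical. That spread was pooled over all 12 libraries, those of day 28 included.

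Osteocytes are the cells embedded in bone matrix. They sense mechanical load and signal to the osteoblasts that build bone and to the osteoclasts that resorb it. PIEZO1 is an ion channel opened by membrane tension, and it is a main mechanosensor of osteoblast-lineage cells. A line that turns out bone matrix pushes large amounts of collagen through the endoplasmic reticulum (ER), where chaperones such as BiP fold new proteins, where prolyl and lysyl hydroxylases modify procollagen and from where coated vesicles carry it onward. When unfolded protein builds up, the sensors IRE1, PERK and ATF6 raise the transcription of those chaperones through promoter sequences called ER stress elements.

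The 8 libraries held 8590067 to 14696779 counts, with TMM factors of 0.9755 to 1.051, and 1.12% to 2.31% of counts fell on the mitochondrial genome. Piezo1 (chr8:122481698-122551329, minus strand, GRCm38) had 114 and 108 CPM in KO cells at day 14 and 169.8 and 169 CPM at day 1, against 211 and 206 CPM in WT cells at day 14 and 216 and 214 CPM at day 1, where CPM is the usual depth-normalised read count, here on library totals scaled by the TMM factors. The deletion removes 3 exons of a long transcript, so a count over the whole gene checks the labels only weakly, and overlapping Ctu2 lies on the other strand. The KO libraries lay below the WT libraries at days 1 and 14, with no overlap. The difference between the changes was -0.57 ± 0.09 (adjusted p = 7.86e-05) by edgeR's quasi-likelihood test with Benjamini-Hochberg adjustment. That is the test behind every adjusted p given here. At day 28, outside the comparison, Piezo1 had 3254 and 4058 counts in KO cells and 3369 and 2929 in WT cells. Those libraries held 12283346 and 15357427 counts in KO cells and 14150225 and 12021068 in WT cells. Scaled by depth, the KO libraries were thus not below the WT libraries there. Of 17 osteocyte markers, 14 passed the filter on low counts. Dmp1 had 7.27 and 7.29 CPM in KO cells at day 14 and 5.47 and 3.68 CPM at day 1, against 11.9 and 16.1 CPM in WT cells at day 14 and 4.94 and 6.50 CPM at day 1, and Sost stayed between 0.343 and 1.3 CPM, so sclerostin, the defining product of a mature osteocyte, was near 0 in all 4 groups. Summed markers of skeletal muscle reached 21.8 CPM at most and those of blood cells 28.9 CPM. In bulk RNA, fewer cells expressing a gene and less RNA per cell cannot be told apart.

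The changes in KO and WT cells differed for 2595 of 13772 genes, which is 18.8% of those tested. Among them, 1266 (9.19%) had a higher and 1329 (9.65%) a lower difference between the changes, and 254 (1.84%) and 318 (2.31%) of these differed by more than 2-fold. Without KO day 14 replicate 1 the called genes numbered 1679, and without KO day 1 replicate 2 they numbered 1678. The higher ones numbered 795, 803 and 786 without KO day 14 replicate 1, KO day 1 replicate 1 and KO day 1 replicate 2. The median difference over all genes tested was 0.0027 on the log2 scale, with a standard deviation of 0.724 and a median standard error of 0.165. Within the lines, 5158 genes changed in KO cells (2675 higher at day 14, 19.4%, and 2483 lower, 18%). In WT cells 4696 genes changed (2505 higher, 18.2%, and 2191 lower, 15.9%), a split that became 2063 higher and 2958 lower when libraries were scaled by their totals alone. Without WT day 1 replicate 2 the WT change was called for 3113 genes. Its lower calls numbered 1434 without WT day 14 replicate 1, 1424 without WT day 14 replicate 2 and 1335 without WT day 1 replicate 2. Between the lines, 6842 genes were apart at day 14 (49.7%) and 5544 at day 1 (40.3%).

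The 2595 genes took several courses. The largest class, 1046 genes (40.3%), changed in KO cells and was not called in WT cells, 559 of them higher and 487 lower at day 14. Another 780 (30.1%) changed in WT cells and were not called in KO cells, 439 higher and 341 lower. In 294 (11.3%) the lines moved in opposite directions, with 133 rising in KO and falling in WT and 161 the other way round. The same direction with a larger step was seen in KO cells for 268 genes (10.3%) and in WT cells for 125 (4.82%), and 82 (3.16%) were called in neither line. Seen as the distance between the lines, the KO minus WT gap was larger in size at day 14 than at day 1 for 1784 of these genes (68.7%) and smaller for 811 (31.3%). Of the 2595, 1077 (41.5%) were called apart between the lines at day 14 and not at day 1, and 494 (19%) at day 1 and not at day 14.

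**Figure D1:**
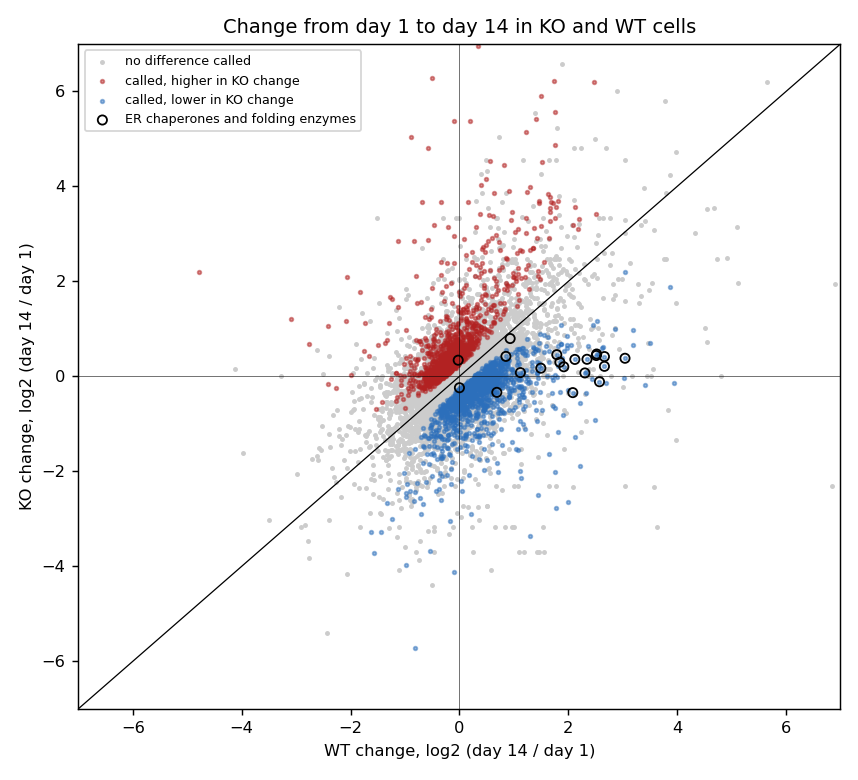
Change from day 14 minus day 1 in log2 units in KO cells (vertical axis) against WT cells (horizontal axis) for each gene tested, with genes called higher in red, genes called lower in blue and ER chaperones ringed. The ringed genes lie mostly to the right of the diagonal, at a median of 0.32 in KO cells and 2.0 in WT cells, and 3 genes lie outside the axes.

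ER chaperones set the lines apart more, by their median, than any other list examined. Between day 1 and day 14 WT cells raised the RNA of nearly the whole set of ER folding genes, by a median of about 4-fold. KO cells moved little. Of 20 ER chaperones and folding enzymes, 17 had a lower difference, against 9.65% of all genes, and none a higher one (1 in a fit of only the 8 libraries, without any single day 28 library or with a replicate block), with a median difference of -1.74 against 0.0027. The median change was 0.32 in KO cells (12 members rose, against 19.4% of all genes, and 2 fell, against 18%) and 2.0 in WT cells (18 rose, against 18.2%, and none fell, against 15.9%). At day 14 all 20 stood lower in KO than in WT cells, against 25.9% of all genes. At day 1 the lines were close, with 4 members higher (19.5% of all genes, or 2121 genes in place of 2685 under library totals alone) and 6 lower (20.8%, or 3418 genes in place of 2859). The summed level of the 20 genes was 8563 and 8451 CPM in KO cells at day 14 and 7266 and 7193 CPM at day 1, against 26722 and 28290.00 CPM in WT cells at day 14 and 6943 and 6909 CPM at day 1.

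The promoters of 5 of these chaperones are shown because they carry the ER stress element, the sequence through which ATF6 and XBP1 act on them. The element was searched as CCAAT and CCACG with any 9 bases between them, on both strands in the 250 bases before the start site, in RefSeq promoters of build GRCm38.p6. It was found in 7 of the 14 list promoters in that table (50%) and in 37 of 32851 promoters of all genes (0.113%). Each line reads 5′ to 3′ on the gene's own strand, with the matched element in capitals. An element on the other strand appears as its reverse complement.
Hspa5 (chr2:34771840-34772089, plus strand): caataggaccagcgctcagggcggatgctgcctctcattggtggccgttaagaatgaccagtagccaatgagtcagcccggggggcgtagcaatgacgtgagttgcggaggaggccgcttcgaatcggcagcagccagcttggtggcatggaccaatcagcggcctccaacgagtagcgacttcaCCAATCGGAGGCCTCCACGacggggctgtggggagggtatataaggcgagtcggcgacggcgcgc
Hsp90b1 (chr10:86705445-86705694, minus strand): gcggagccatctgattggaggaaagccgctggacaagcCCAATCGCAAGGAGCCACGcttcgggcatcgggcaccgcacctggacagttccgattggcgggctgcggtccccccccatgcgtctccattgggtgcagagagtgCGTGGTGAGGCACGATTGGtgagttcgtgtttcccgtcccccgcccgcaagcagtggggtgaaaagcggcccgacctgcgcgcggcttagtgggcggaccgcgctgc
Calr (chr8:84846932-84847181, minus strand): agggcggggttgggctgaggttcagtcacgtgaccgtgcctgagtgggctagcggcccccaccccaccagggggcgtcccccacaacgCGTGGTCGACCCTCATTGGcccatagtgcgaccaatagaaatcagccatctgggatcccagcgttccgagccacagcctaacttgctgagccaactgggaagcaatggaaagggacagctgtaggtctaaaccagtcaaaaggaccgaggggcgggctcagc
Pdia6 (chr12:17266339-17266588, plus strand): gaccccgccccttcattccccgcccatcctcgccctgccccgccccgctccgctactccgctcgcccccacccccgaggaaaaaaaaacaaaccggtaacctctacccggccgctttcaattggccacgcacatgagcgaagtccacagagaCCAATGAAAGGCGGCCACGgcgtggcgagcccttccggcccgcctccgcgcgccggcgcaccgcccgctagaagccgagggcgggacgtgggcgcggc
Creld2 (chr15:88819396-88819645, plus strand): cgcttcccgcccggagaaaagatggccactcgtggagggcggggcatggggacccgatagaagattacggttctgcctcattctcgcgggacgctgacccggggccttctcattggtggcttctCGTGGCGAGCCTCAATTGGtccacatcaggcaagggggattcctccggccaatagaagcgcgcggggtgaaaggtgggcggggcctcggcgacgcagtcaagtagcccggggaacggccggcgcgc
A match describes the letters of this window, and no binding was measured. In the promoters shown, no matched CCACG is followed by T, which would give the 5 letters taken as the core of the hypoxia element.

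Hspa5, which encodes the main ER Hsp70 chaperone BiP, had 1081 and 1032 CPM in KO cells at day 14 and 1014 and 996 CPM at day 1, against 4987 and 5263 CPM in WT cells at day 14 and 1012 and 1062 CPM at day 1. The WT day 14 libraries stood far above the other 6, which lay within a narrow band. The change was 0.07 ± 0.07 in KO cells and 2.31 ± 0.07 in WT cells, a difference of -2.23 ± 0.10 (adjusted p = 1.12e-12). Calr, which encodes the calcium-binding lectin chaperone calreticulin, had 1024 and 994 CPM in KO cells at day 14 and 1092 and 1089.5 CPM at day 1, against 3909 and 4044 CPM in WT cells at day 14 and 646 and 691 CPM at day 1. KO cells began above WT cells at day 1 and ended below them at day 14, each without overlap. Its difference of -2.69 ± 0.10 (adjusted p = 1.78e-13) was the strongest of the list. Hsp90b1, which encodes the ER member of the Hsp90 family (GRP94), had 1744 and 1763 CPM in KO cells at day 14 and 1278 and 1252 CPM at day 1, against 6740.4 and 7351 CPM in WT cells at day 14 and 1251 and 1204 CPM at day 1. It rose in both lines, by 0.47 ± 0.09 in KO and 2.52 ± 0.09 in WT cells, and the difference was -2.05 ± 0.12 (adjusted p = 2.53e-10). Sdf2l1, a partner of the BiP co-chaperones, differed by -2.66 ± 0.16 (adjusted p = 1.86e-10), and the secreted stress proteins Manf and Creld2 by -2.45 ± 0.10 (adjusted p = 6.6e-13) and -2.25 ± 0.10 (adjusted p = 2.26e-12). Disulfide isomerases took part as well. Pdia6 differed by -2.08 ± 0.09 (adjusted p = 2.26e-12), and P4hb, which is also the beta subunit of collagen prolyl 4-hydroxylase, by -0.43 ± 0.09 (adjusted p = 0.00113). The regulators Xbp1 and Atf6 and an oxidase did not pass the test. Xbp1, the target of IRE1, stood at -0.13 ± 0.12 (adjusted p = 0.481), with a rise of 0.80 ± 0.09 in KO cells and 0.93 ± 0.08 in WT cells. Atf6 stood at -0.24 ± 0.12 (adjusted p = 0.192) and Ero1l, an ER oxidase also listed among hypoxia-responsive genes, at 0.36 ± 0.13 (adjusted p = 0.0581), whereas its relative Ero1lb differed by -2.42 ± 0.18 (adjusted p = 5.57e-09).

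**Figure D2:**
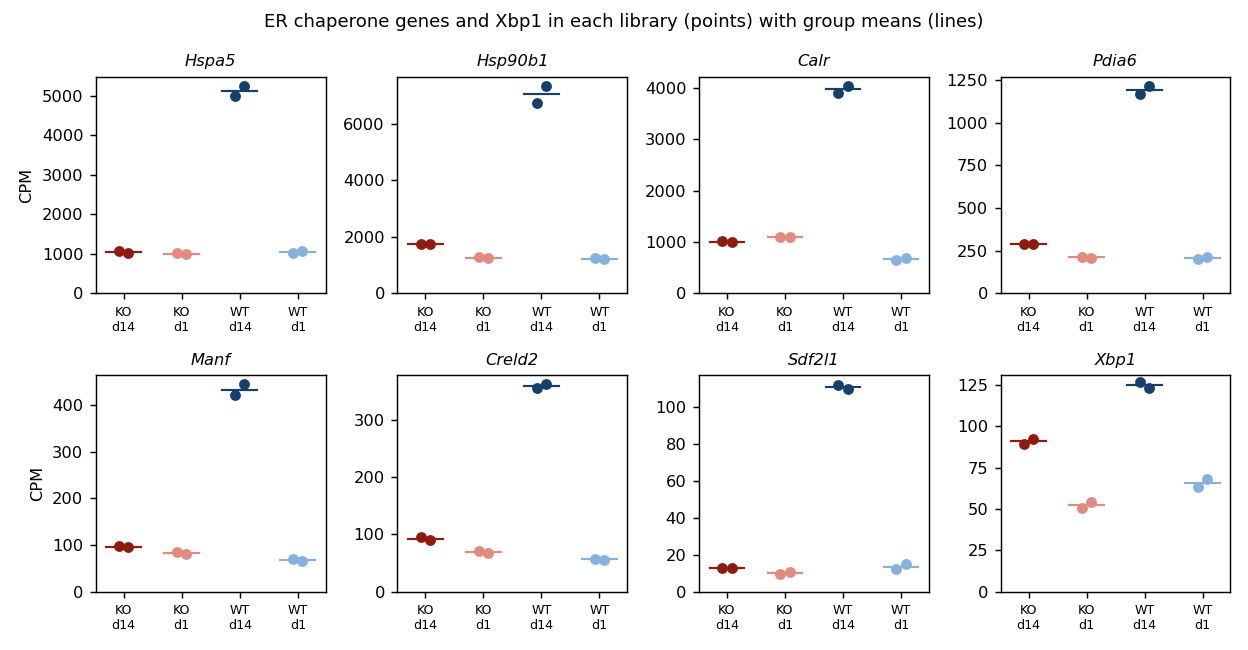
CPM of 8 ER genes in each library, with KO day 14, KO day 1, WT day 14 and WT day 1 from left to right, points for the 2 libraries and a line for their mean. In 7 panels the WT day 14 points stand above all others; for Xbp1, which was not called, the day 14 points are the higher ones in both lines.

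Other branches of the secretory route moved differently. Among 23 genes of ER translocation and ER-associated degradation, 9 had a lower difference (9.65% of all genes) and none a higher one, with a median of -0.28. Of the 9, 6 act in degradation. Sel1l, the adaptor of the HRD1 ubiquitin ligase, had 121 and 111 CPM in KO cells at day 14 and 115 and 127 CPM at day 1, against 289 and 307 CPM in WT cells at day 14 and 129.8 and 120.2 CPM at day 1, and its difference was -1.31 ± 0.10 (adjusted p = 7.72e-09). The WT day 14 libraries lay above the other 6. Edem1, which hands misfolded glycoproteins to degradation, differed by -1.04 ± 0.09 (adjusted p = 1.02e-07), Herpud1 by -0.78 ± 0.17 (adjusted p = 0.00205) and the signal peptidase subunit Spcs3 by -0.98 ± 0.10 (adjusted p = 3.74e-07). The translocon subunits Sec61a1 and Ssr3 did not pass the test. Sec61a1 stood at -0.06 ± 0.09 (adjusted p = 0.727) and Ssr3 at 0.14 ± 0.09 (adjusted p = 0.33). The ER stress element was found in 2 of 20 promoters of this list (10%).

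Vesicle coat genes went the other way. Of 23 genes for ER-Golgi coats and cargo receptors, 14 had a higher difference, against 9.19% of all genes, and 1 a lower one, with a median of 0.45. In KO cells 20 of the 23 rose (19.4% of all genes), with a median of 0.49. In WT cells 5 rose (18.2% of all genes) and 3 fell (15.9%), both near those shares, with a median of 0.04. Under library totals alone the WT counts were 4 and 5, with a median of -0.02. Sec23a, an inner coat protein of the COPII vesicles that leave the ER, had 155 and 156 CPM in KO cells at day 14 and 83.9 and 79.97 CPM at day 1, against 119 and 123 CPM in WT cells at day 14 and 141 and 134 CPM at day 1. Its lowest libraries were those of KO cells at day 1 and its highest those of KO cells at day 14, and the difference was 1.11 ± 0.11 (adjusted p = 2.68e-07). Sec13, of the outer COPII coat, rose by 0.49 ± 0.07 in KO cells and fell by 0.57 in WT cells, a difference of 1.06 ± 0.10 (adjusted p = 1.83e-07). Sec24d, a COPII cargo adaptor, differed by 0.84 ± 0.11 (adjusted p = 1.22e-05) and Copb2, of the COPI coat, by 0.81 ± 0.11 (adjusted p = 1.73e-05). The exception was Creb3l2, a membrane-bound transcription factor of the ER, at -0.76 ± 0.11 (adjusted p = 7.15e-05).

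The ATF4-CHOP arm, through which PERK and other kinases answer stress, had more lower than higher calls. Of 21 genes, 6 had a lower (9.65% of all genes) and 2 a higher difference (9.19%), with a median of -0.17. The higher count was near its share of all genes. Ddit3, which encodes CHOP, had 84.6 and 93.4 CPM in KO cells at day 14 and 189 and 196 CPM at day 1, against 586 and 548 CPM in WT cells at day 14 and 379 and 433 CPM at day 1. The lowest group was KO day 14 and the highest WT day 14, with no overlap between any of the groups. It fell by 1.11 in KO cells and rose by 0.48 ± 0.08 in WT cells, a difference of -1.60 ± 0.12 (adjusted p = 4.83e-09). Trib3, a pseudokinase induced by CHOP, differed by -1.12 ± 0.11 (adjusted p = 3.23e-07). The 2 higher members were Vldlr, a lipoprotein receptor, at 1.48 ± 0.09 (adjusted p = 2.53e-10) and Ddit4, an inhibitor of mTORC1 signalling that is also listed under hypoxia, at 1.33 ± 0.23 (adjusted p = 0.000282). Atf4 itself stood at -0.16 ± 0.08 (adjusted p = 0.183). Of 14 amino acid transporters 3 were called, 21.4% against 18.8% of all genes, 1 higher and 2 lower. Of 20 cytosolic aminoacyl-tRNA synthetases 5 were higher (9.19% of all genes) and 3 lower (9.65%), with a median of 0.05. Many genes of both lists are ATF4 targets. Slc7a5, which carries large neutral amino acids, differed by -0.64 ± 0.09 (adjusted p = 3.39e-05), and the alanyl-tRNA synthetase gene Aars by -0.52 ± 0.10 (adjusted p = 0.000649).

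**Figure D3:**
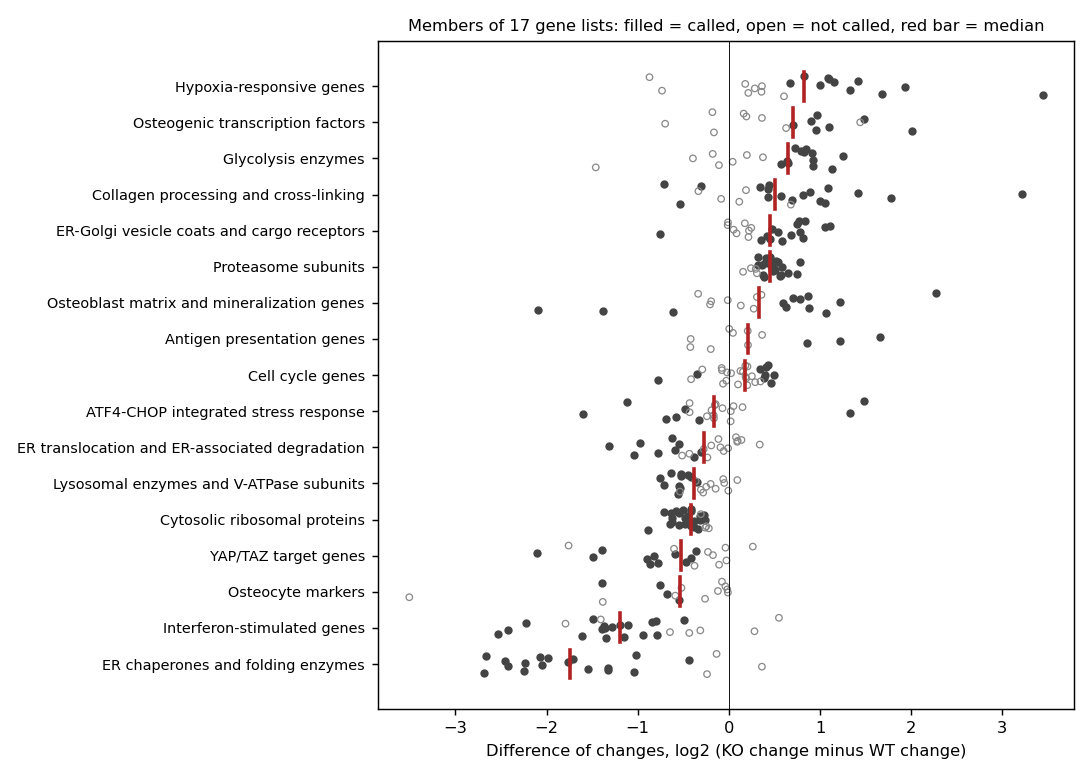
Difference between the changes, KO minus WT in log2 units, for the members of 17 lists, with filled points for genes called, open points for genes not called and a red bar for the median of each list. The ER chaperone and interferon lists have the lowest medians, at -1.74 and -1.20, and the glycolysis and hypoxia lists are among those above 0, at 0.65 and 0.82.

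Interferon-stimulated genes formed another set that WT cells raised more. These genes are switched on by the transcription factor complex ISGF3 and encode antiviral proteins. Of 27 listed, 25 were tested. A lower difference was called for 18 of them (9.65% of all genes) and a higher one for none, with a median of -1.20. In WT cells 23 rose (18.2% of all genes), with a median of 1.48. In KO cells 7 rose (19.4% of all genes), with a median of 0.42. The summed level was 398 and 399.8 CPM in KO cells at day 14 and 344 and 349.5 CPM at day 1, against 844 and 857 CPM in WT cells at day 14 and 374 and 378 CPM at day 1.

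Isg15, a ubiquitin-like protein attached to other proteins after interferon, had 4.72 and 6.69 CPM in KO cells at day 14 and 5.04 and 5.81 CPM at day 1, against 30.6 and 32.5 CPM in WT cells at day 14 and 11.7 and 11.6 CPM at day 1. WT cells at day 14 stood above the other groups, WT cells at day 1 came next, and the KO libraries of the 2 days overlapped. The difference was -1.36 ± 0.28 (adjusted p = 0.00169). Irf7, the transcription factor that drives interferon-alpha genes, had 4.06 and 3.09 CPM in KO cells at day 14 and 5.55 and 5.74 CPM at day 1, against 16.8 and 16.2 CPM in WT cells at day 14 and 3.90 and 5.91 CPM at day 1, a difference of -2.42 ± 0.33 (adjusted p = 2.28e-05). Again the WT day 14 libraries were the highest, and the KO day 14 libraries included the lowest. Irf9, which encodes a subunit of ISGF3, differed by -1.39 ± 0.16 (adjusted p = 2.87e-06). Oasl2, of the oligoadenylate synthetase family, differed by -1.37 ± 0.25 (adjusted p = 0.000483), the RNA sensor Ddx58 (RIG-I) by -1.15 ± 0.14 (adjusted p = 4.88e-06) and the pro-apoptotic Xaf1 by -1.49 ± 0.16 (adjusted p = 1.31e-06). Ifi44, among the 12 lowest differences of called genes whose mean log2 CPM reached 3, stood at -2.53 ± 0.65 (adjusted p = 0.0084). Without KO day 1 replicate 2 its adjusted p was 0.112. Ifit2, at 33.3 to 48.1 CPM over the 8 libraries, stood at 0.28 ± 0.12 (adjusted p = 0.118). The core of the interferon-stimulated response element, searched as GAAA, any 2 bases and GAAA again on either strand, was found in 7 of 21 list promoters (33.3%) and in 978 of 32851 promoters of all genes (2.98%). Among the list genes holding it, Bst2, Isg15 and Stat2 were called lower. Ifit1, Ifit3 and Rsad2 were not called, and Oas1a was not tested. The core is shown in capitals in the promoter of Isg15, where 3 matches overlap.
Isg15 (chr4:156200819-156201068, minus strand): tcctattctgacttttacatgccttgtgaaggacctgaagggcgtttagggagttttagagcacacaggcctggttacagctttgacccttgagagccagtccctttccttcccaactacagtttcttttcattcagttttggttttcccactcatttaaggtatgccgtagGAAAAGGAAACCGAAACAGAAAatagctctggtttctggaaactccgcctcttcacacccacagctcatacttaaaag

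A row of the table named for a YAP and EGFP fusion, left out of the test, moved with these genes. It held 1 and 3 counts in KO cells at day 14 and 1 and 0 at day 1, against 82 and 45 counts in WT cells at day 14 and 2 and 3 at day 1. The row's part in any result was not tested. Yap1 itself had 97.4 and 89.8 CPM in KO cells at day 14 and 92.9 and 92.8 CPM at day 1, against 106 and 106 CPM in WT cells at day 14 and 88.7 and 89.7 CPM at day 1.

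Genes of antigen presentation, also inducible by interferons, showed another course. Most rose in both lines, with 8 of 11 called higher and 1 lower at day 14 in each. Of all genes, 19.4% rose and 18% fell in KO cells, and 18.2% rose and 15.9% fell in WT cells. The list medians were 1.19 in KO and 1.08 in WT cells. In the difference 27.3% of the 11 were called, against 18.8% of all genes. The difference was higher for 3 and lower for none (1 without either WT day 28 library). Nlrc5, the transactivator of MHC class I genes, had 79.9 and 76.98 CPM in KO cells at day 14 and 14.6 and 17.3 CPM at day 1, against 27.8 and 27.5 CPM in WT cells at day 14 and 12.4 and 13.98 CPM at day 1, a difference of 1.22 ± 0.18 (adjusted p = 4.21e-05). The KO day 14 libraries stood highest. Psmb8, an immunoproteasome subunit, differed by 1.66 ± 0.22 (adjusted p = 1.68e-05) and the class I gene H2-K1 by 0.86 ± 0.09 (adjusted p = 1.48e-06). Counted in CPM the WT gain was the larger one for Psmb8 and H2-K1. H2-K1 and H2-D1 are close in sequence, and how shared reads were counted is not given in the sources used here.

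Ribosomal and proteasomal genes moved by small steps but nearly as whole sets. Cytosolic ribosomal proteins build the ribosome and the proteasome degrades ubiquitin-tagged proteins. Of 31 ribosomal protein genes, 27 had a lower difference (9.65% of all genes) and none a higher one, with a median of -0.42. In WT cells 30 of 31 rose (18.2% of all genes), with a median of 0.45. In KO cells 2 rose (19.4% of all genes) and 2 fell (18%), with a median of -0.01. Their summed level was 8947 and 9206 CPM in KO cells at day 14 and 8971 and 9145 CPM at day 1, against 14483 and 13636 CPM in WT cells at day 14 and 10373 and 10164 CPM at day 1. The WT day 14 libraries were the highest, and the 4 KO libraries lay within a narrow band below all WT libraries. Rpl10, which encodes a protein of the large subunit, had 199 and 196 CPM in KO cells at day 14 and 179.6 and 189.9 CPM at day 1, against 428 and 389 CPM in WT cells at day 14 and 211 and 202 CPM at day 1, a difference of -0.89 ± 0.09 (adjusted p = 5.65e-07). Its WT day 14 libraries stood above the other 6. Rps4x, of the small subunit, differed by -0.64 ± 0.09 (adjusted p = 1.79e-05) and Rpl23 by -0.65 ± 0.10 (adjusted p = 6.95e-05). Ribosomal protein genes have many near-identical pseudogenes, so their counts depend on how shared reads were assigned.

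Proteasome genes showed the reverse. Of 29 subunits, 25 had a higher difference (9.19% of all genes) and none a lower one, with a median of 0.45. In WT cells 21 fell (15.9% of all genes) and none rose, with a median of -0.28. In KO cells 14 rose (19.4% of all genes) and none fell, with a median of 0.18. KO cells already stood higher at day 1, with 20 of 29 called (19.5% of all genes) and a median gap of 0.30. At day 14 all 29 were called higher (23.8% of all genes), with a median gap of 0.84. The summed level was 5435 and 5335 CPM in KO cells at day 14 and 4809.7 and 4811 CPM at day 1, against 3068 and 3050.00 CPM in WT cells at day 14 and 3773 and 3658 CPM at day 1, so the 4 groups did not overlap. Psmd11, of the lid of the regulatory particle, had 115 and 109 CPM in KO cells at day 14 and 81.9 and 83.2 CPM at day 1, against 59.2 and 53.3 CPM in WT cells at day 14 and 70.5 and 72.8 CPM at day 1, a difference of 0.78 ± 0.10 (adjusted p = 1.07e-05). The highest group was KO day 14 and the lowest WT day 14, without overlap. Psma5 and Psma7, of the alpha ring of the core, differed by 0.75 ± 0.14 (adjusted p = 0.000611) and 0.65 ± 0.10 (adjusted p = 0.000113), and the base subunit Psmd1 by 0.54 ± 0.08 (adjusted p = 8.08e-05). The core of the antioxidant response element, TGAC and GC with any 3 bases between them, was found in 4 of 25 proteasome promoters (16%) and in 3338 of all 32851 (10.2%).

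**Figure D4:**
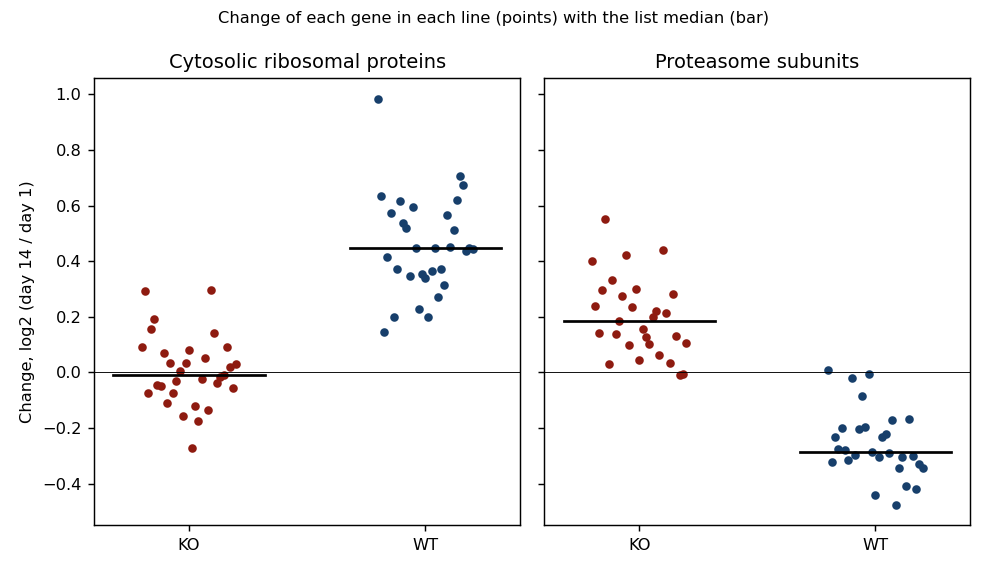
Change from day 14 minus day 1 in log2 units of each cytosolic ribosomal protein and each proteasome subunit, KO cells on the left and WT cells on the right of each panel, with a bar for the median. Ribosomal medians were -0.01 in KO and 0.45 in WT cells, and proteasome medians were 0.18 in KO and -0.28 in WT cells.

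Glycolytic and hypoxia-responsive genes were the clearest sets in which the lines drew nearer to each other. At day 1 KO cells expressed most of these genes at a lower level than WT cells, and at day 14 the median gap was smaller. Glycolysis turns glucose into pyruvate and lactate, and most of its enzymes are, like the hypoxia-responsive genes, targets of the factor HIF-1. Of 19 glycolysis genes, 12 had a higher difference (9.19% of all genes) and none a lower one (1 without KO day 1 replicate 2 or either KO day 28 library, 2 without either WT day 28 library and 2 in a fit of only the 8 libraries), with a median of 0.65. In KO cells 15 rose (19.4% of all genes), with a median of 0.73. In WT cells 7 rose (18.2% of all genes) and 1 fell (15.9%), with a median of 0.30. The median KO minus WT gap was -0.35 at day 14 and -0.87 at day 1, and for all 12 called genes the gap was smaller in size at day 14. Summed, the 19 genes had 3641 and 3993 CPM in KO cells at day 14 and 2209 and 2223 CPM at day 1, against 4645 and 4482 CPM in WT cells at day 14 and 4495 and 4282 CPM at day 1. The KO day 1 libraries were the lowest and did not overlap the others.

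Aldoa, which encodes the aldolase of muscle and most other tissues, had 399 and 440.1 CPM in KO cells at day 14 and 189 and 198 CPM at day 1, against 461 and 474 CPM in WT cells at day 14 and 489.6 and 457 CPM at day 1. Only the KO day 1 libraries stood apart, at less than 0.5 times the others, and the difference was 1.14 ± 0.20 (adjusted p = 0.000294). Pfkl, the liver-type phosphofructokinase, had 106 and 119 CPM in KO cells at day 14 and 32.6 and 35.4 CPM at day 1, against 168 and 176 CPM in WT cells at day 14 and 129.7 and 117 CPM at day 1, a difference of 1.25 ± 0.22 (adjusted p = 0.000441). Again the KO day 1 libraries were the lowest. Eno1, Ldha and Pkm, of the later steps, differed by 0.92 ± 0.18 (adjusted p = 0.00084), 0.92 ± 0.18 (adjusted p = 0.000978) and 0.79 ± 0.15 (adjusted p = 0.000634). The glucose transporter Slc2a1 (GLUT1) rose by 1.33 ± 0.11 in KO and 0.48 ± 0.09 in WT cells, a difference of 0.85 ± 0.14 (adjusted p = 0.000213), although in CPM the WT gain was the larger. The hexokinase gene Hk1 stood at 0.04 ± 0.14 (adjusted p = 0.878) and Pfkp at -0.18 ± 0.14 (adjusted p = 0.414).

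Of 19 hypoxia-responsive genes, 11 had a higher difference (9.19% of all genes) and none a lower one, with a median of 0.82. The median change was 0.72 in KO cells, where 12 rose (19.4% of all genes). In WT cells it was -0.02, where 5 rose (18.2% of all genes) and 3 fell (15.9%). Under library totals alone the WT counts were 5 and 5, with a median of -0.08. Summed, the list had 1658 and 1855 CPM in KO cells at day 14 and 906 and 912 CPM at day 1, against 2573 and 2631 CPM in WT cells at day 14 and 2519 and 2468 CPM at day 1. The median gap was -0.62 at day 14 and -1.72 at day 1. Vegfa, the main vascular growth factor, had 204 and 214 CPM in KO cells at day 14 and 127 and 126 CPM at day 1, against 384 and 392 CPM in WT cells at day 14 and 408 and 423 CPM at day 1. The KO libraries lay below the WT libraries at both days, with the KO day 1 libraries lowest, and the difference was 0.82 ± 0.09 (adjusted p = 1.21e-06). Bnip3, a receptor for the removal of mitochondria, differed by 1.68 ± 0.20 (adjusted p = 3.2e-06), Pdk1, which shuts pyruvate out of the mitochondrion, by 1.10 ± 0.21 (adjusted p = 0.00092) and the stress-induced Ndrg1 by 1.15 ± 0.13 (adjusted p = 2.34e-06). The prolyl hydroxylase gene Egln3, itself induced by HIF, stood at 1.93 ± 0.46 (adjusted p = 0.00498), and without KO day 1 replicate 1 its adjusted p was 0.0556. Car9, a classic hypoxia gene, was at -0.73 ± 0.28 (adjusted p = 0.0732).

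The strongest of this list was Ankrd37, an ankyrin-repeat protein induced by hypoxia, with 23.1 and 31.3 CPM in KO cells at day 14 and 3.59 and 3.83 CPM at day 1, against 25.4 and 24.3 CPM in WT cells at day 14 and 39.8 and 34.1 CPM at day 1. The KO day 1 libraries stood far below the others, and the KO and WT libraries overlapped at day 14. It rose by 2.87 ± 0.23 in KO cells and fell by 0.57 in WT cells, a difference of 3.44 ± 0.29 (adjusted p = 4.9e-08). Its promoter is shown with the core of the hypoxia response element, ACGTG on either strand, in capitals. The core was found in 11 of 21 hypoxia promoters (52.4%) and 12 of 31 glycolysis promoters (38.7%), against 5444 of 32851 promoters of all genes (16.6%).
Ankrd37 (chr8:45999851-46000100, minus strand): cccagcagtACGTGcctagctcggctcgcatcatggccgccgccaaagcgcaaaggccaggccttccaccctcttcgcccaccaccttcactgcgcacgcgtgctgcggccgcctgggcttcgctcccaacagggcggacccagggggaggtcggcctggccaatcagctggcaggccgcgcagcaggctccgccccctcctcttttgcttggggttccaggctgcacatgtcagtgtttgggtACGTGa
The 5-letter core also occurred in 6 of 14 ER chaperone promoters (42.9%). Ankrd37 overlaps Lrp2bp and Ufsp2 on the other strand, and whether reads were counted by strand is not given in the sources used here.

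**Figure D5:**
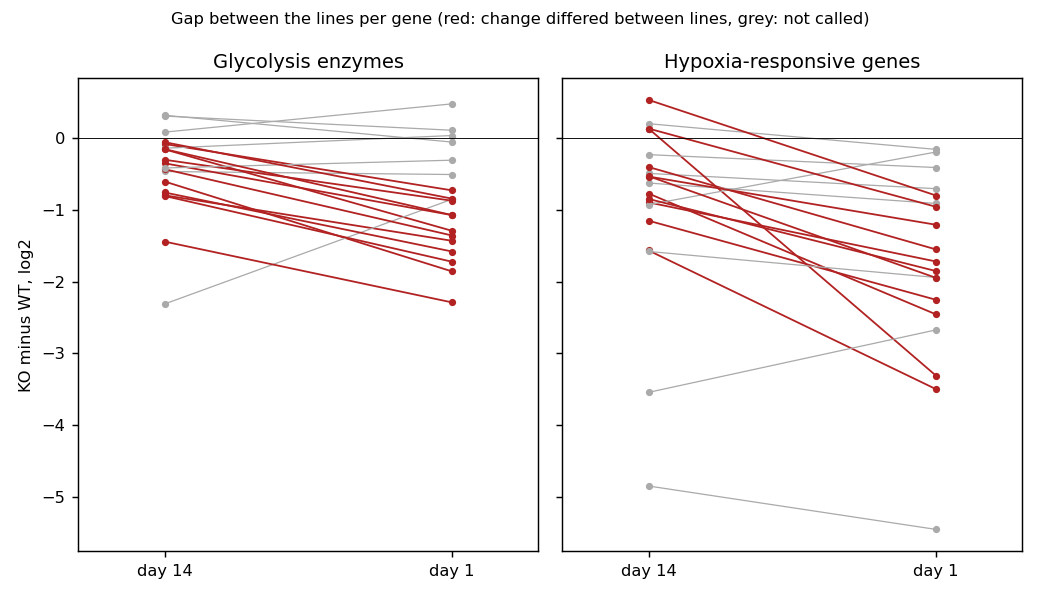
KO minus WT gap in log2 units at day 14 (left) and day 1 (right) for each glycolysis and hypoxia-responsive gene, with lines joining the values of a gene and genes called in the difference in red. The median gaps were -0.35 at day 14 and -0.87 at day 1 for glycolysis, and -0.62 at day 14 and -1.72 at day 1 for hypoxia-responsive genes.

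Enzymes that modify and cross-link collagen mostly had a larger change in KO cells, and so did several collagens. Prolyl and lysyl hydroxylases act on procollagen inside the ER, and lysyl oxidases cross-link it outside the cell. Of 22 genes for collagen processing, 14 had a higher difference (9.19% of all genes) and 3 a lower one (1 without KO day 14 replicate 1 or without WT day 1 replicate 1), with a median of 0.50. The median change was 0.47 in KO and 0.31 in WT cells. Loxl2, a lysyl oxidase, had 221 and 244 CPM in KO cells at day 14 and 48.4 and 51.1 CPM at day 1, against 261 and 259.99 CPM in WT cells at day 14 and 189 and 193 CPM at day 1. The KO day 1 libraries stood far below the other 6, and the difference was 1.78 ± 0.16 (adjusted p = 1.47e-07). P3h2, a prolyl 3-hydroxylase of basement membrane collagen, differed by 3.22 ± 0.32 (adjusted p = 4.24e-07), the prolyl 4-hydroxylase subunit P4ha1 by 1.42 ± 0.18 (adjusted p = 9.72e-06) and the lysyl hydroxylase Plod2 by 1.09 ± 0.10 (adjusted p = 1e-07). P4ha1 and Plod2 are in the hypoxia list as well. Serpinh1, which encodes the collagen chaperone HSP47, rose in both lines and differed by 0.44 ± 0.09 (adjusted p = 0.00132), and Bmp1, the procollagen C-proteinase, by 1.06 ± 0.11 (adjusted p = 9.38e-07). Bmp1 rose by 0.26 ± 0.08 in KO cells and fell by 0.79 in WT cells. The procollagen N-proteinase gene Adamts2 was lower, at -0.53 ± 0.10 (adjusted p = 0.000923).

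Of 18 collagen genes, 8 had a higher (9.19% of all genes) and 4 a lower difference (9.65%), with a median of 0.21. Col3a1, a fibrillar collagen of soft tissue, had 913 and 1033 CPM in KO cells at day 14 and 89.4 and 86.2 CPM at day 1, against 538 and 614 CPM in WT cells at day 14 and 185 and 179.6 CPM at day 1. KO cells held both the lowest libraries, at day 1, and the highest, at day 14, and the difference was 1.81 ± 0.21 (adjusted p = 3.61e-06). The type I chains of bone, Col1a1 and Col1a2, differed by 0.88 ± 0.22 (adjusted p = 0.00696) and 0.63 ± 0.15 (adjusted p = 0.00498). With DESeq2 the adjusted p of Col1a1 was 0.0863. Col11a1, a minor fibrillar chain, differed by 1.07 ± 0.12 (adjusted p = 1.87e-06), and the basement membrane chains Col4a1 and Col4a2, which are neighbours on chromosome 8, by 1.74 ± 0.13 (adjusted p = 6.68e-09) and 1.53 ± 0.14 (adjusted p = 1.03e-07). For the type IV chains the WT gain in CPM was the larger. Col5a3, a type V chain, was lower, at -1.45 ± 0.15 (adjusted p = 9.88e-07), and Col5a1 was at 0.13 ± 0.14 (adjusted p = 0.566).

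Transcription factors of the osteoblast lineage leaned towards KO cells. Of 15, 7 had a higher difference (9.19% of all genes) and none a lower one, with a median of 0.71. With DESeq2 5 of them were called. Dlx3, a homeobox gene, had 39.9 and 41.1 CPM in KO cells at day 14 and 5.98 and 3.97 CPM at day 1, against 25.8 and 26.03 CPM in WT cells at day 14 and 12.3 and 13.1 CPM at day 1. KO cells held the highest libraries, at day 14, and the lowest, at day 1, and the difference was 2.01 ± 0.34 (adjusted p = 0.000266). Runx2, which commits cells to the osteoblast lineage, differed by 0.90 ± 0.13 (adjusted p = 6.11e-05), and the homeobox gene Dlx5 by 0.96 ± 0.15 (adjusted p = 8.76e-05). Sp7, which acts after Runx2, stood at 0.97 ± 0.22 (adjusted p = 0.00328), with an adjusted p of 0.0761 in DESeq2. Twist1 and Snai2 were at 0.16 ± 0.15 (adjusted p = 0.49) and 0.36 ± 0.18 (adjusted p = 0.161).

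Genes of the mineralizing matrix went both ways, with 9 of 20 higher (9.19% of all genes), 3 lower (9.65%) and a median of 0.33. Alpl, the tissue-nonspecific alkaline phosphatase that supplies phosphate for mineral, had 991 and 942 CPM in KO cells at day 14 and 535 and 541 CPM at day 1, against 737 and 662 CPM in WT cells at day 14 and 791 and 842 CPM at day 1. KO cells spanned the range, lowest at day 1 and highest at day 14, and the difference was 1.07 ± 0.20 (adjusted p = 0.000661). Ifitm5, an osteoblast membrane protein, differed by 1.21 ± 0.23 (adjusted p = 0.000652) and the matrix protein Postn by 0.70 ± 0.14 (adjusted p = 0.000985). Osteocalcin went the other way. Bglap2 had 15.9 and 16.5 CPM in KO cells at day 14 and 11.3 and 12.1 CPM at day 1, against 38.9 and 27.7 CPM in WT cells at day 14 and 5.14 and 6.23 CPM at day 1, a difference of -2.10 ± 0.23 (adjusted p = 1.47e-06). WT cells held both the lowest libraries, at day 1, and the highest, at day 14. Bglap and Bglap2 are near-identical copies, and their counts depend on how shared reads were assigned. Spp1, which encodes osteopontin, was at -0.34 ± 0.12 (adjusted p = 0.0585).

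Osteocyte markers were lower where they were called. Of the 14 tested, 4 had a lower difference (9.65% of all genes) and none a higher one, with a median of -0.54. Phex, an endopeptidase that regulates phosphate and mineral, had 4.63 and 4.11 CPM in KO cells at day 14 and 11.4 and 10.1 CPM at day 1, against 4.64 and 7.06 CPM in WT cells at day 14 and 4.55 and 6.10 CPM at day 1, a difference of -1.40 ± 0.32 (adjusted p = 0.00342). The KO day 1 libraries stood above the other 6. Pdpn (podoplanin), an early marker of dendrite growth, differed by -0.76 ± 0.18 (adjusted p = 0.00568) and Fam20c, the secretory kinase that phosphorylates matrix proteins, by -0.67 ± 0.14 (adjusted p = 0.00121). Dmp1 was at -0.59 ± 0.34 (adjusted p = 0.257). Among 7 tested factors that act on osteoclasts, 2 were higher and 2 lower, and 1 was higher when replicate 2 of any of the 4 groups was left out. Tnfrsf11b, the decoy receptor osteoprotegerin, differed by 0.92 ± 0.19 (adjusted p = 0.00162) and the chemokine Cxcl12 by -1.16 ± 0.11 (adjusted p = 3.6e-07). Of these 7 factors, 57.1% were called, against 18.8% of all genes. Of 14 matrix proteases and inhibitors tested, 4 were higher (9.19% of all genes) and 6 lower (9.65%). Adamts4, an aggrecanase, differed by 1.15 ± 0.12 (adjusted p = 1.27e-06) and the inhibitor Timp3 by -0.85 ± 0.10 (adjusted p = 4.65e-06). The lower ones numbered 3 without KO day 14 replicate 1, KO day 1 replicate 1 or WT day 14 replicate 2.

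Genes that answer to the coactivators YAP and TAZ, which enter the nucleus when cells are spread or under tension, leaned the other way. Of 20 targets, 11 had a lower difference (9.65% of all genes) and none a higher one (1 without either WT day 28 library), with a median of -0.53. In KO cells 13 fell (18% of all genes) and 3 rose (19.4%), with a median of -0.44. In WT cells 5 rose (18.2% of all genes) and 3 fell (15.9%), with a median of 0.04. Under library totals alone the WT counts were 5 and 4, with a median of -0.02. Ccn2, the connective tissue growth factor gene, had 4.63 and 4.46 CPM in KO cells at day 14 and 12.98 and 12.4 CPM at day 1, against 14.3 and 11.2 CPM in WT cells at day 14 and 11.6 and 13.98 CPM at day 1. The KO day 14 libraries were the lowest and the other 6 overlapped, and the difference was -1.49 ± 0.24 (adjusted p = 0.000164). Nt5e, the ectonucleotidase CD73, differed by -1.40 ± 0.14 (adjusted p = 5.15e-07), the receptor kinase Axl by -0.89 ± 0.10 (adjusted p = 1.92e-06) and Amotl2, which binds YAP, by -0.86 ± 0.12 (adjusted p = 2.25e-05). Ptpn14 and Asap1 were at -0.04 ± 0.09 (adjusted p = 0.832) and -0.03 ± 0.09 (adjusted p = 0.885). The YAP and EGFP row given with the interferon genes had its high counts in WT cells at day 14, where these targets had a median change of 0.04. The row's part in these results was not tested.

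Of 22 actin and focal adhesion genes, 9 had a lower difference and 1 a higher one (0 in 7 of 12 fits that left out 1 library), with a median of -0.21. Without KO day 14 replicate 1 the lower ones numbered 5. Acta2, smooth muscle actin, had 409 and 406 CPM in KO cells at day 14 and 292 and 291 CPM at day 1, against 406 and 400.5 CPM in WT cells at day 14 and 162 and 155 CPM at day 1. The WT day 1 libraries were the lowest, and KO and WT libraries were close at day 14, and the difference was -0.86 ± 0.10 (adjusted p = 3.37e-06). Tagln, an actin-binding protein of contractile cells, differed by -1.42 ± 0.23 (adjusted p = 0.000122), Actg2 by -1.59 ± 0.21 (adjusted p = 1.77e-05) and the vitronectin receptor subunit Itgb5 by -0.75 ± 0.09 (adjusted p = 4.91e-06). The focal adhesion genes Vcl and Tln1 were at -0.13 ± 0.10 (adjusted p = 0.394) and -0.16 ± 0.09 (adjusted p = 0.223). Of the 22 genes of this list, 45.5% were called, against 18.8% of all genes.

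Among 17 mechanosensitive channels, connexins and pannexins tested, 3 had a higher (9.19% of all genes) and 5 a lower difference (9.65%). Piezo1 was among the lower, and the median was -0.13. Piezo2, the other member of the Piezo family, had 4.53 and 3.26 CPM in KO cells at day 14 and 0.94 and 1.03 CPM at day 1, against 26.6 and 28.00 CPM in WT cells at day 14 and 30.6 and 29.99 CPM at day 1, a difference of 2.11 ± 0.30 (adjusted p = 3.34e-05). The KO libraries lay far below the WT libraries at both days. Gja1, which encodes the main connexin of osteocyte gap junctions (Cx43), had 322 and 321 CPM in KO cells at day 14 and 68.00 and 65.6 CPM at day 1, against 112 and 117 CPM in WT cells at day 14 and 49.3 and 48.5 CPM at day 1. The KO day 14 libraries stood above the rest, and the difference was 1.05 ± 0.13 (adjusted p = 9.79e-06). Gjc1, another connexin, fell in both lines and differed by -1.51 ± 0.14 (adjusted p = 2.27e-07), and the polycystin genes Pkd1 and Pkd2 differed by -0.56 ± 0.10 (adjusted p = 0.000293) and -0.56 ± 0.09 (adjusted p = 0.000106). Panx3, a pannexin of the osteoblast lineage, was at 0.13 ± 0.24 (adjusted p = 0.775).

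Signals between cells were mixed. Of 16 Wnt ligands and secreted inhibitors tested, 2 were higher (9.19% of all genes) and 4 lower (9.65%), with a median of -0.46. The lower ones numbered 2 without KO day 14 replicate 2, KO day 1 replicate 1, WT day 14 replicate 1 or WT day 1 replicate 1, and the higher ones 1 without WT day 14 replicate 2. Dkk3 had 104 and 101 CPM in KO cells at day 14 and 92.00 and 97.3 CPM at day 1, against 160.4 and 169 CPM in WT cells at day 14 and 59.9 and 61.2 CPM at day 1, a difference of -1.33 ± 0.10 (adjusted p = 6.33e-09). WT cells held the lowest libraries, at day 1, and the highest, at day 14. The secreted inhibitor Sfrp2 differed by -1.30 ± 0.15 (adjusted p = 3.61e-06) and the ligand Wnt4 by 1.07 ± 0.19 (adjusted p = 0.000472). Of 14 feedback and target genes of beta-catenin, 4 were higher (7 without either WT day 28 replicate) and 3 lower, among them Myc, which drives growth, at 1.09 ± 0.13 (adjusted p = 4.38e-06) and Nkd1, a negative feedback gene, at -1.28 ± 0.16 (adjusted p = 6.06e-06). Axin2, the most general target, was at 0.40 ± 0.19 (adjusted p = 0.145). Of the 14 genes of this list, 50% were called, against 18.8% of all genes. Of 19 BMP and TGF-beta targets, 7 were higher (9.19% of all genes) and 3 lower (9.65%), with a median of 0.60. Bambi, a decoy receptor, differed by 1.02 ± 0.22 (adjusted p = 0.00251). Id4, a helix-loop-helix inhibitor, had 0.661 and 0.429 CPM in KO cells at day 14 and 0.598 and 0.515 CPM at day 1, against 6.66 and 7.98 CPM in WT cells at day 14 and 0.65 and 1.12 CPM at day 1, a difference of -3.07 ± 0.69 (adjusted p = 0.00303). Its WT day 14 libraries stood above the other 6, which overlapped.

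The largest differences among called genes whose mean log2 CPM reached 3 lay in genes outside most of these lists. Among the 12 highest, taken from called genes whose mean log2 CPM reached 3, were Adamtsl1, a secreted matrix protein, at 4.49 ± 0.57 (adjusted p = 9.15e-06), the mitochondrial adenylate kinase gene Ak4 at 3.93 ± 0.43 (adjusted p = 1.78e-06), the elastin gene Eln at 3.74 ± 0.56 (adjusted p = 7.25e-05) and the heparanase gene Hpse at 3.66 ± 0.49 (adjusted p = 1.63e-05). In these 4 the KO gain was the larger in log2 units and the WT gain the larger in CPM. Adamtsl1, for instance, had 12.7 and 18.3 CPM in KO cells at day 14 and 0.0854 and 0.294 CPM at day 1, against 31.4 and 32.4 CPM in WT cells at day 14 and 8.58 and 10.4 CPM at day 1. Rerg, a Ras-related growth inhibitor, had 46.8 and 55.1 CPM in KO cells at day 14 and 4.10 and 5.37 CPM at day 1, against 44.5 and 41.2 CPM in WT cells at day 14 and 32.6 and 33.9 CPM at day 1, a difference of 3.05 ± 0.22 (adjusted p = 5.68e-09). Its KO day 1 libraries were far below the other 6. Map2, which binds microtubules, had 1 count in KO cells at day 1. Its day 14 to day 1 ratio was 36.4 in KO cells (exact 95% interval 6.07 to 1480, counting error only, from 32 and 1 counts) and 3.39 in WT cells (3.02 to 3.81). Its difference was not called with DESeq2 (adjusted p = 0.0906), without KO day 14 replicate 1 (0.0516) or without KO day 1 replicate 2 (0.193). The others were P3h2, Ankrd37, Ndufa4l2 (2.997), Selenbp1 (2.75), Plppr5 (2.69) and Papss2 (2.64), which makes the sulfate donor for proteoglycans.

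Among the 12 lowest, 4 were ER genes (Calr, Sdf2l1, Manf and Ero1lb) and 2 interferon genes (Ifi44 and Irf7). Klf15, a transcription factor of glucocorticoid and metabolic responses, had 0.189 and 0.343 CPM in KO cells at day 14 and 1.03 and 1.18 CPM at day 1, against 66.7 and 65.95 CPM in WT cells at day 14 and 28.3 and 32.7 CPM at day 1, a difference of -3.12 ± 0.70 (adjusted p = 0.00324). It was near 0 in KO cells at both days. Klf15 is also in the adipocyte list, whose summed level was 27.8 and 27.1 CPM in KO cells at day 14 and 27.8 and 24.6 CPM at day 1, against 105 and 101 CPM in WT cells at day 14 and 52.5 and 59.3 CPM at day 1, and Pparg, the defining adipocyte factor, stayed at or under 0.189 CPM in KO cells and between 4.81 and 6.49 CPM in WT cells. The part of such cells in these results was not tested. The other low genes were Ppm1l (-2.87), A830036E02Rik (-2.74), Tes (-2.62), Sirpa (-2.50) and Car6 (-2.28), the last not called with limma voom or without KO day 14 replicate 2 or KO day 1 replicate 1.

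Some genes turned in opposite directions. Tes, a LIM protein of focal adhesions, had 4.44 and 4.03 CPM in KO cells at day 14 and 13.8 and 11.04 CPM at day 1, against 14.1 and 13.5 CPM in WT cells at day 14 and 5.59 and 7.55 CPM at day 1. In KO cells the higher libraries were those of day 1 and in WT cells those of day 14, without overlap in either line. Mdga1, a cell-surface protein of the immunoglobulin family, had 75.04 and 73.5 CPM in KO cells at day 14 and 44.7 and 44.6 CPM at day 1, against 16.9 and 17.01 CPM in WT cells at day 14 and 30.8 and 25.1 CPM at day 1, a difference of 1.46 ± 0.19 (adjusted p = 9.93e-06). It rose in KO cells and fell in WT cells. Tuba4a, an alpha-tubulin, did the same from a lower level in KO cells and differed by 1.43 ± 0.21 (adjusted p = 6.11e-05). The next rankings hold for genes whose mean log2 CPM reached 3. Among genes called in KO and not in WT cells, the highest were Pdlim4 (2.47), Sox6 (2.38) and Piezo2, and the lowest Ppm1l, Fam180a (-2.23) and S100a4 (-1.99). Among those called in WT and not in KO cells, the highest were Hoxb9 (2.26), Prr7 (2.03) and Fndc1 (2.03).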

How the data were processed

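Per the labels' protocols, cells in 12-well plates were lysed in Qiazol, and poly(A) libraries were made from 400 to 1000 ng of RNA. The authors deposited raw read counts per gene for all 12 libraries in a single table of 32248 rows, of which 9345 were at 0 throughout. STAR, featureCounts, edgeR and mm10 are named in the submitters' processing notes, and their versions, the annotation, the strand setting and the treatment of reads with several matches are given in none of the sources used here. Antisense and overlapping genes are therefore uncertain. Among genes named here, Manf, Irf7, Tagln, Psmd1, Pdia6, Tuba4a, Piezo1 and A830036E02Rik overlap a gene on the other strand in GENCODE, and Irf9 one on the same strand. The 3 rows for transgenes were left out of library sizes and tests. Some members of the lists are counted but not reported here by name.

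From these counts, edgeR 4.0.16 (R 4.3.3, limma 3.58.1) was run on all 12 libraries with 1 coefficient for each of 6 groups, TMM factors, filterByExpr (minimum count 10, minimum total 15) and the quasi-likelihood F test with Benjamini-Hochberg adjustment over 13772 genes. A gene was called at an adjusted p under 0.05, and n = 2 libraries per group throughout. The biological coefficient of variation was 5.53%, on 6 residual and 14.6 prior degrees of freedom, and ± marks the standard error. The pipeline was tested on simulated data. Values per library are TMM-scaled CPM. Intervals of count ratios are exact binomial at 95% and cover counting error only.

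Genes were named by a rule: the 12 highest and 12 lowest called differences among genes whose mean log2 CPM reached 3, the first 3 per class of course and direction, and the first 4 called per list. Further list members were named after their values were seen. The comparison and the lists were chosen with earlier results of these data known. Alternatives were DESeq2 1.42.0 (size factors, Wald test), library totals or upper quartiles for scaling, no low-count filter or a minimum of 5 CPM in 2 libraries, limma voom, a fit of only 8 libraries, a replicate block and leaving out each library. Figures were drawn with matplotlib 3.10.9.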

Additional observations from a re-analysis of the deposited data

Results flagged for a closer look

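The KO and WT changes ran in opposite directions for 294 genes, both changes called and the difference between them called as well. The largest log2 differences are given for genes whose mean log2 CPM reached 3. Of the genes that rose in KO and fell in WT cells, they belonged to Ankrd37 (3.44), Mdga1 (1.46) and Tuba4a (1.43). Of those that fell in KO and rose in WT cells, they belonged to Klf15 (-3.12), A830036E02Rik (-2.74) and Tes (-2.62). A830036E02Rik lies across Krt12 on the other strand. It had 6.80 and 9.001 CPM in KO cells at day 14 and 33.7 and 30.8 CPM at day 1, against 17.8 and 15.04 CPM in WT cells at day 14 and 10.4 and 9.71 CPM at day 1.

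A table row outside the gene test, named for a YAP and EGFP fusion, held 82 and 45 counts in WT cells at day 14. It held at most 3 counts in each of the other 6 libraries of days 1 and 14. At day 28 it held 7 and 2 counts in KO cells and 224 and 75 in WT cells. Over all 12 libraries the rows named for tdTomato and Cre held 1 to 19 and 0 to 1 counts.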

How the results depend on the processing

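With only the 8 libraries of days 1 and 14 in the fit, 4093 genes were called, 2076 higher and 2017 lower, and they include all 2595 genes called with 12 libraries. The 2 libraries of a group differed most at day 28. Set against counting noise, their chi-square per degree of freedom was 6.07 in KO and 11.28 in WT cells. In the 4 groups compared it was 1.43 to 3.42. Leaving out 1 library at a time gave 1678 to 3517 called genes, 786 to 1759 higher and 884 to 1758 lower. The lowest counts came without KO day 1 replicate 2 and KO day 14 replicate 1, and without KO day 1 replicate 1 the higher ones numbered 803. The WT change was called for 3113 to 5582 genes in those fits, 1335 to 2685 of them lower. The cause of these moves was not tested. All other settings called 1964 (DESeq2) to 2617 genes. Library totals alone split the difference into 1357 higher and 1244 lower, the KO change into 2247 and 2927, and the KO minus WT gap into 2887 and 3903 at day 14. With a replicate block 2585 genes were called, 2516 of them shared with the fit without it. Same-numbered libraries showed little shared deviation between the 4 groups (correlations of -0.105 to 0.0362). Between KO and WT cells at day 28 the correlation was 0.235. Such correlations cannot show whether equal numbers mark paired cultures. Named genes here are the 162 taken by the naming rule, with Piezo1, and none of them reversed its direction. List members named in the text though not called were not followed in this way. With 1 library left out, 1814 values of named genes kept their call and 130 lost it, and 15 lost it under other settings. The medians of the amino acid transporter, mitochondrial, chondrocyte, endothelial and fibroblast lists turned sign between settings. With 2 libraries a group, Sost and other genes near 0 could not be followed at this depth.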

Other observations

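Lysosomal genes were another set that WT cells raised more. Of 22 enzymes, membrane proteins and proton pump subunits, 11 had a lower difference (9.65% of all genes) and none a higher one. The median was -0.39. In KO cells 4 rose (19.4% of all genes) and 1 fell (18%), and in WT cells 15 rose (18.2%) and none fell (15.9%). Psap, the precursor of the saposins, had 582 and 571 CPM in KO cells at day 14 and 619 and 636 CPM at day 1, against 705 and 689 CPM in WT cells at day 14 and 502 and 476 CPM at day 1, a difference of -0.63 ± 0.10 (adjusted p = 0.000126). WT day 14 libraries were the highest and WT day 1 libraries the lowest. The hexosaminidase gene Hexa differed by -0.76 ± 0.10 (adjusted p = 2.52e-05) and the cathepsin gene Ctsl by -0.71 ± 0.11 (adjusted p = 9.75e-05). In axon guidance, 13 of 28 genes were higher (9.19% of all genes) and 10 lower (9.65%). The higher ones numbered 8 without KO day 14 replicate 1, KO day 1 replicate 1 or KO day 1 replicate 2. Sema3c, a secreted semaphorin, had 2.74 and 2.74 CPM in KO cells at day 14 and 7.09 and 8.61 CPM at day 1, against 21.4 and 21.4 CPM in WT cells at day 14 and 15.4 and 16.01 CPM at day 1, a difference of -1.97 ± 0.26 (adjusted p = 1.55e-05). The receptor gene Robo2 differed by 1.06 ± 0.13 (adjusted p = 6.76e-06) and its ligand gene Slit2 by -0.87 ± 0.11 (adjusted p = 6.76e-06). The change of Slit2 was 0.00 ± 0.07 in KO cells, which was not called, and 0.87 ± 0.08 in WT cells, which was.

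Cell cycle genes were mostly not called, with 7 of 28 higher (9.19% of all genes) and 2 lower (9.65%). The higher ones numbered 4 without either WT day 14 library, and the lower ones 1 without KO day 14 replicate 1 or WT day 14 replicate 1. Mki67, the proliferation marker, had 1209 and 1235 CPM in KO cells at day 14 and 1046 and 1043 CPM at day 1, against 733 and 698 CPM in WT cells at day 14 and 762 and 787 CPM at day 1, a difference of 0.34 ± 0.08 (adjusted p = 0.00646), and cyclin D1 (Ccnd1) differed by -0.78 ± 0.10 (adjusted p = 1.29e-05). Of 20 p53 targets, 4 were lower, 2 without WT day 14 replicate 1 or WT day 1 replicate 1, and 7 without either WT day 28 library. Trp53inp1, a stress protein, led them at -1.25 ± 0.12 (adjusted p = 3.77e-07), and Cdkn1a was at -0.35 ± 0.13 (adjusted p = 0.0561). Called either way were 20% of the p53 targets, against 18.8% of all genes. For the next lists that share was 13.6% (cholesterol synthesis) and 18.8% (NF-kB). Of 22 cholesterol synthesis genes 3 were lower, a count of 0 to 7 when 1 library was left out. Of 16 inflammatory NF-kB genes tested, 3 were higher, and none was without KO day 1 replicate 1. Ccl5, a chemokine, had 32 counts in KO cells at day 14 and 2 at day 1, a ratio of 18.2 (exact 95% interval 4.64 to 157), against 8 counts in WT cells at day 14 and 9 at day 1. The gene's difference was not called without KO day 14 replicate 1, either KO day 1 library, WT day 14 replicate 1 or WT day 1 replicate 1. Among markers of other cells, 2 of 9 chondrocyte genes were higher (9.19% of all genes), and 1 of 8 adipocyte and 1 of 5 endothelial genes were lower (9.65% of all genes), counts too small to set apart from those shares. The adipocyte count was 2 without WT day 1 replicate 1 or either WT day 28 library. Muscle (2 of 5 lower) and fibroblast and tendon genes (1 of 8 higher) each fell to 0 when 1 library was left out, muscle without KO day 1 replicate 1 and the other list without KO day 1 replicate 2, WT day 14 replicate 1 or WT day 1 replicate 2. With any of KO day 14 replicate 1, WT day 14 replicate 1 or 2 and WT day 1 replicate 2 left out, 1 muscle gene was lower. At day 28, outside the comparison, the summed ER chaperones reached 64684 and 60579.5 CPM in KO cells and 39468 and 45319 CPM in WT cells.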
